A study of Mus musculus with 8 samples.

Results

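Transcript levels of 92 genes of the mitochondrial respiratory chain were followed over 8 mouse thalami. They were all genes with a probe set annotated with 1 symbol that begins with Nduf, Sdha to Sdhd, Uqcr, Cox4 to Cox8 or Atp5, taken at the probe set of highest mean where a gene had several. The rule found 119 probe sets for 93 genes, and 92 genes passed the brightness floor of a mean log2 level of 5.63. By complex, 41 genes belonged to complex I, 8 to complex II, 8 to complex III, 18 to complex IV and 17 to complex V. Of the 92, 73 encode subunits in general use, 6 encode tissue isoforms of complex IV subunits, 2 are relatives of a complex IV subunit, and 11 encode assembly factors whose symbols share the prefixes. The gene under the floor was Cox7b2, a testis isoform (mean 4.70), and the members just above it were Cox8c (5.72), Cox6b2 (5.84) and Cox8b (5.85). The whole comparison covered 15791 named probe sets. Ndufa4 was counted with complex IV, in which its product was found to reside.

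The mice were adult C57BL/6 males, 6 weeks old when they entered the study, with 2 animals in each of 4 groups. Controls were injected daily with saline, and the MPTP group with MPTP-HCl at 20 mg/kg every 24 hr for 4 weeks. MPTP is a neurotoxin whose metabolite enters dopaminergic neurons and inhibits complex I, and the regimen is used to model parkinsonism. The acupoint group received the same MPTP and 14 needling sessions, 48 hr apart, at acupoints GB34 and LR3, and the non-acupoint group received MPTP and needling on that schedule at the hips. There was no needled group without MPTP.

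The respiratory chain passes electrons from NADH through complex I, or from succinate through complex II, to ubiquinone, then through complex III and cytochrome c to complex IV, which reduces oxygen. Complexes I, III and IV pump protons across the inner mitochondrial membrane, and complex V, the ATP synthase, uses the gradient to make ATP. Most subunits are encoded in the nucleus, including every gene followed here, while a core set is encoded in the mitochondrial genome, and neurons depend on the chain for most of their ATP.

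On 2 arrays, MPTP mouse 1 and non-acupoint mouse 1, the profile differed from that of the other 6. Over all tested probe sets they correlated at 0.982 with each other and at 0.905 to 0.936 with the rest, while the other 6 correlated at 0.981 to 0.995 among themselves. All results are therefore given with and without these arrays. In the fit of 6 arrays the MPTP and non-acupoint groups hold 1 mouse each, and the spread of such a group is taken from the control and acupoint mice. The 5 markers of thalamic relay neurons (Tcf7l2, Prkcd, Rora, Vav3 and Ntng1) were present on every array, at log2 levels of 7.89 to 11.94. The summed linear level of these 5 markers was 4374 and 4671 in controls and 7662 to 9214 in the 6 injected mice. That of 4 dopaminergic markers (Th, Slc6a3, Slc18a2 and Ddc), which are not thalamic, was 2351 to 2733 in controls, 375 and 1762 in MPTP mice, 341 and 322 in acupoint mice, and 478 and 741 in non-acupoint mice. The levels of these markers thus differed between control and injected mice, and the part of this in the results below was not tested. A difference in the tissue taken and an effect of MPTP on it cannot be told apart here.

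The main feature of the respiratory chain genes was a shared low level on the same 2 arrays. Relative to the mean of the controls, the median over the 92 genes was -0.61 in MPTP mouse 1 and -0.53 in non-acupoint mouse 1 on the log2 scale. It lay between -0.01 and 0.08 on the other 6 arrays. Over all tested probe sets the median was -0.01 and -0.04 on these 2 arrays, a value that the normalization between arrays holds near 0. Both arrays lay below all of the other 6 in 65 of the 92 genes, against 29.2% of all tested probe sets. They lay above the other 6 in 9 genes, against 28.3% of probe sets. These were Cox6a2, Ndufa3, Ndufa4l2, Ndufa6, Ndufaf4, Ndufs1, Ndufs6, Sdhaf2 and Sdhc. In tissue of this kind, fewer cells of a type and less RNA per cell cannot be told apart. The labels give no RNA quality or scan date, so a technical difference of these 2 arrays was not tested.

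**Figure D1:**
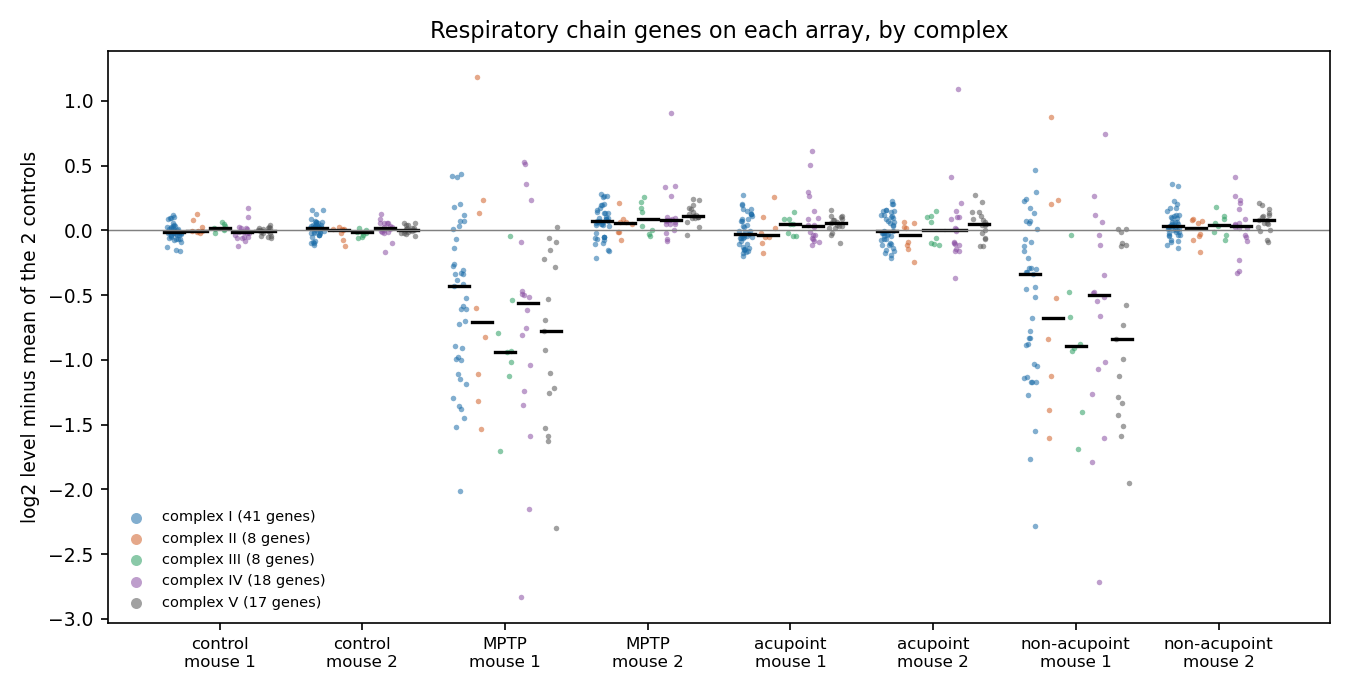
Log2 level minus the mean of the 2 controls (vertical axis) for each of the 92 genes on each of the 8 arrays (horizontal axis), coloured by complex, with a bar at the median of each complex. In MPTP mouse 1 and non-acupoint mouse 1 all 5 medians lie between -0.33 and -0.94, and on the other 6 arrays between -0.04 and 0.11.

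All 5 complexes took part, to different depths. In MPTP mouse 1 and non-acupoint mouse 1 the medians were -0.43 and -0.33 for complex I, -0.71 and -0.68 for complex II, -0.94 and -0.89 for complex III, -0.56 and -0.50 for complex IV and -0.77 and -0.84 for complex V. The order of the complexes depended on which genes were counted. Over subunits in general use alone, complex IV was the lowest, with medians of -1.14 and -1.04 over 10 genes, followed by complex II with -0.97 and -0.98 over its 4 subunits. Complex I remained the least low, with -0.60 and -0.45. The 11 assembly factors had medians of 0.03 and -0.09, and the 6 tissue isoforms of complex IV 0.07 and 0.01. Neither of these classes thus shared the low median of the subunits. Of the isoforms, Cox8c, Cox6b2 and Cox8b had means just above the brightness floor, where differences are compressed. Cox7a1, another of them, was lower on both arrays than on any of the rest.

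The difference between the 2 mice of a group shows the same pattern without reference to the controls. MPTP mouse 1 was lower than MPTP mouse 2 in 78 of 92 genes, by a median of -0.74, and by at least 1 log2 unit, a 2-fold difference, in 31. Non-acupoint mouse 1 was lower than non-acupoint mouse 2 in 75 genes, by a median of -0.61, and by at least 1 unit in 32. Among all tested probe sets 50.4% and 51.0% were lower in mouse 1, and 4.82% and 4.90% were at least 1 unit lower. The same 29 genes reached 1 unit in both groups, against 533 of all 15791 probe sets. Over the 92 genes the differences in the 2 groups correlated at 0.947 (Pearson), as they did at 0.822 over all 15791 probe sets. This is a description of 4 arrays, since the genes share those arrays. The same difference lay between -0.32 and 0.34 in controls and between -0.48 and 0.36 in acupoint mice for all 92 genes.

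**Figure D2:**
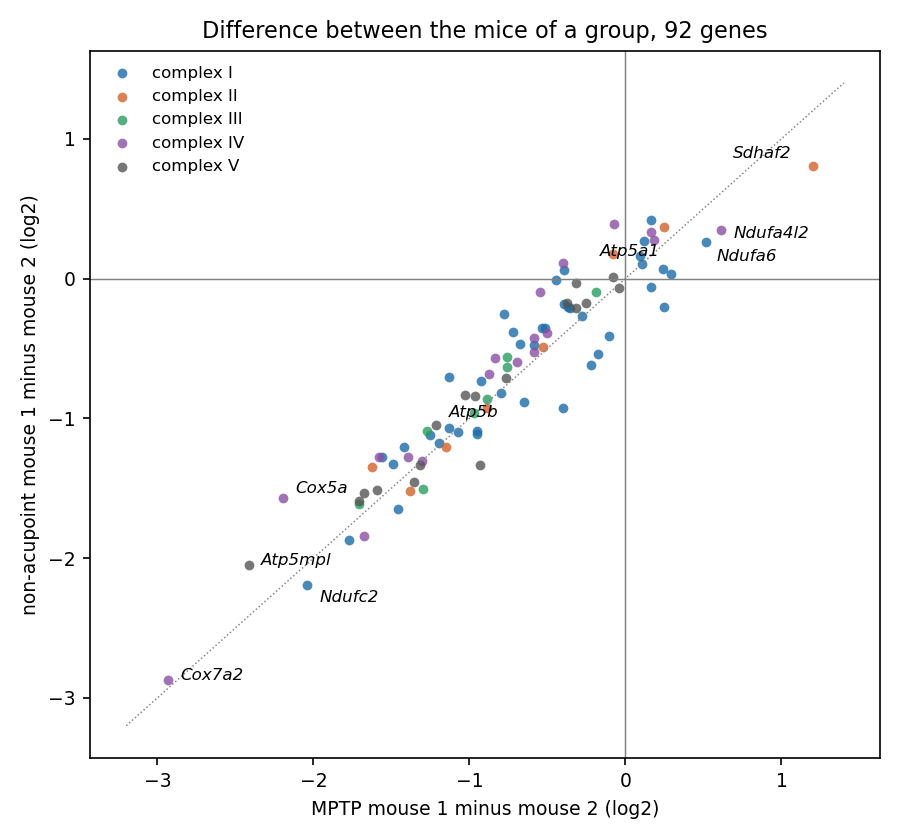
Difference in log2 level between mouse 1 and mouse 2 of the MPTP group (horizontal axis) and of the non-acupoint group (vertical axis) for each of the 92 genes, coloured by complex. The dotted line marks equal differences, and the points follow it from Cox7a2 at -2.93 and -2.88 to Sdhaf2 at 1.20 and 0.80.

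In complex I, the NADH dehydrogenase that MPTP's metabolite inhibits, the catalytic core and the surrounding supernumerary subunits were low alike. On MPTP mouse 1 and non-acupoint mouse 1 the 6 core genes had medians of -0.58 and -0.56, and the 28 supernumerary genes -0.60 and -0.45. Ndufs3, a core subunit of the arm that faces the matrix, stood at 10.70 and 10.83 in controls, 9.47 and 11.03 in MPTP mice, 10.93 and 10.91 in acupoint mice and 9.60 and 10.87 in non-acupoint mice. Ndufs8, an iron-sulfur subunit near the ubiquinone site, showed the same order, at 8.40 and 8.46 on the 2 arrays and 9.48 to 9.69 on the other 6. Only these 2 of the 6 core genes were at least 1 unit below the control mean on both arrays.

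Ndufs1, the largest subunit and carrier of several iron-sulfur clusters, ran the other way. It stood at 10.39 and 10.22 in controls, 10.74 and 10.50 in MPTP mice, 10.50 and 10.51 in acupoint mice and 10.60 and 10.53 in non-acupoint mice. All 6 injected mice were thus above both controls, and the 2 arrays that stood apart were the highest. The flavoprotein genes Ndufv1 and Ndufv2, which take electrons from NADH, differed by -0.54 and -0.80 between MPTP mouse 1 and mouse 2.

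Among the supernumerary subunits of complex I, Ndufc2 and Ndufb6, both of the membrane arm, had the widest ranges. Ndufc2 stood at 10.69 and 10.70 in controls, 8.68 and 10.72 in MPTP mice, 10.65 and 10.54 in acupoint mice and 8.41 and 10.60 in non-acupoint mice. Ndufb6 differed by -1.77 between the MPTP mice and by -1.87 between the non-acupoint mice. Ndufa6, in contrast, stood at 9.72 and 9.54 on the same arrays and at 9.21 to 9.32 on the other 6, with no overlap. Ndufb7 varied little, between 9.42 and 9.69 over the 8 mice. Ndufb11 depended on the probe set, since the brighter of its 2 probe sets differed by -0.40 between the MPTP mice and the other by -2.17.

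Of the 7 complex I assembly factors, Ndufaf5, which modifies a core subunit, was the lowest relative to controls, at 6.50 and 6.72 on the 2 arrays against 7.45 to 7.81 on the other 6. Ndufaf3 and Ndufaf7 also lay below the other 6 arrays on both, by smaller margins. Ndufaf4 lay between 7.94 and 8.16 over all 8 mice.

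Complex II, succinate dehydrogenase, is the smallest complex and is encoded wholly in the nucleus. Its 4 subunits did not move together. The flavoprotein Sdha stood at 11.54 in each control, 10.71 and 11.60 in MPTP mice, 11.49 and 11.56 in acupoint mice and 10.70 and 11.62 in non-acupoint mice. The iron-sulfur subunit Sdhb was at 8.37 and 8.36 on the 2 arrays and 9.36 to 9.56 on the rest. The membrane anchor Sdhd was at 8.11 and 8.26 on them, against 9.56 to 9.74. The other anchor, Sdhc, was highest on those arrays, at 9.93 and 9.90, against 9.45 to 9.72. Sdhaf2, which attaches the flavin to Sdha, was the gene farthest above the controls on MPTP mouse 1 and non-acupoint mouse 1, at 9.16 and 8.85 against 7.90 to 8.08 on the other 6. Sdhaf4, another assembly factor, was low, at 5.99 and 5.70 against 7.16 to 7.43.

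In complex III, the cytochrome bc1 complex, all 8 genes lay below the other 6 arrays on both. The Rieske iron-sulfur protein Uqcrfs1 stood at 8.11 and 8.14 in controls, 7.11 and 8.39 in MPTP mice, 8.22 and 8.28 in acupoint mice and 7.22 and 8.31 in non-acupoint mice. Uqcrq, a small subunit, had the widest range, at 7.68 and 7.70 on the 2 arrays and 9.27 to 9.42 on the other 6. The core proteins differed from each other. Uqcrc1 differed by -0.97 and -0.96 between mouse 1 and mouse 2 of the MPTP and non-acupoint groups, while Uqcrc2 lay between 11.12 and 11.31 in all 8 mice.

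In complex IV, cytochrome c oxidase, Cox7a2 had the largest range of the 92 genes. This subunit stood at 10.01 and 10.03 in controls, 7.19 and 10.12 in MPTP mice, 10.06 and 10.17 in acupoint mice and 7.30 and 10.18 in non-acupoint mice. Cox5a, a subunit on the matrix side, stood at 8.06 in MPTP mouse 1 and 8.60 in non-acupoint mouse 1, against 10.07 to 10.26 on the other 6 arrays. Cox6c, Cox6a1, Cox8a and Cox7b were each at least 1 unit below the control mean on both arrays as well. For Cox7b this held at the brighter probe set only. Its dimmer probe set was at 8.91 and 8.59 on the 2 arrays, against 9.26 and 9.29 in controls. Cox5b and Ndufa4 showed the smallest gaps among the 10 general subunits, with Cox5b at 11.29 and 11.45 against 11.79 to 11.84.

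In complex V the subunits of 1 part of the enzyme could differ widely. In the catalytic head, Atp5b, the beta subunit that carries the catalytic sites, stood at 12.72 and 12.69 in controls, 11.60 and 12.81 in MPTP mice, 12.74 and 12.77 in acupoint mice and 11.71 and 12.76 in non-acupoint mice. Atp5a1, the alpha subunit that alternates with it, lay between 12.25 and 12.33 in all 8 mice. In the central stalk, Atp5d differed by -1.71 and -1.59 between mouse 1 and mouse 2 of the MPTP and non-acupoint groups, and Atp5c1 by -0.25 and -0.18.

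The c ring, the rotor in the membrane, is made from 3 genes whose mature products are the same protein. Atp5g3 stood at 11.27 and 11.22 in controls, 9.72 and 11.39 in MPTP mice, 11.30 and 11.23 in acupoint mice and 9.73 and 11.27 in non-acupoint mice. Between MPTP mouse 1 and mouse 2 the difference was -1.67 for Atp5g3 but -0.37 for Atp5g1 and -0.32 for Atp5g2. The 5 other membrane subunits had the lowest medians of any part of the enzyme, -1.25 and -1.34. Of these Atp5mpl was the lowest, at 8.48 and 8.82 on the 2 arrays and 10.76 to 10.89 on the other 6. In the peripheral stalk Atp5h lay between 11.30 and 11.45 in all mice, while Atp5j differed by -1.32 between MPTP mouse 1 and mouse 2.

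Different probe sets of a gene mostly gave the same difference between the MPTP mice. Of the 18 genes with at least 2 probe sets, 14 had differences within 0.5 of each other, and 4 did not (Atp5l, Cox7b, Ndufb11 and Sdhaf4). The 6 probe sets of Atp5l were nevertheless all low in MPTP mouse 1, by -1.36 to -1.89. Many genes of this family have near-identical processed copies in the genome, and a probe set may read those too. No values of the probes themselves were used here.

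Gene length and signal level were described beside these differences. Over all 14854 probe sets whose gene has a span, the rank correlation of the span of the gene with the difference between MPTP mouse 1 and mouse 2 was 0.438, so shorter genes were lower in mouse 1. The 92 genes are short, with a median span of 7444 bases against 24005 over those probe sets, but among themselves the correlation was -0.03. The correlation of level with the difference was -0.35 among the 92 genes and -0.09 over all probe sets. The part of length and level in the low levels was not tested.

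Upstream sequence was taken from the RefSeq promoter windows of build GRCm38.p6, 300 bases that run from 250 before to 50 after a gene's start. They were found for 76 of the 92 genes (81 windows). The following are shown because they pair a gene with a low level on the 2 arrays with one without. Cox7a2 and Sdhd were among the lowest, and Atp5h was level. Cox6a1 was low while Cox8b, a muscle isoform described further below, was not. Capitals mark matches to the motifs that were searched.
Cox7a2, chr9:79759804-79760103, minus strand: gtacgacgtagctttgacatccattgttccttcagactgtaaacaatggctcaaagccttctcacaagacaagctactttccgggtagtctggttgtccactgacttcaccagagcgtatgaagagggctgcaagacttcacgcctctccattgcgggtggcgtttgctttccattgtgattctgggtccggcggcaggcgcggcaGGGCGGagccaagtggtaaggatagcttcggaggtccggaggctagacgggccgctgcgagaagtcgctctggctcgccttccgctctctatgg
Sdhd, chr9:50603800-50604099, minus strand: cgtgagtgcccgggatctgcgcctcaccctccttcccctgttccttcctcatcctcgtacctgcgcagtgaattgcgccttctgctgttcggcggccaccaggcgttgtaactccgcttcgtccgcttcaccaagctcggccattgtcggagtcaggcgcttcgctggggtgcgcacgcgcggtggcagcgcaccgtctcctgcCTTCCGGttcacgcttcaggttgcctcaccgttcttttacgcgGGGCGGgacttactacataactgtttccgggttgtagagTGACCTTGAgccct
Atp5h, chr11:115419870-115420169, minus strand: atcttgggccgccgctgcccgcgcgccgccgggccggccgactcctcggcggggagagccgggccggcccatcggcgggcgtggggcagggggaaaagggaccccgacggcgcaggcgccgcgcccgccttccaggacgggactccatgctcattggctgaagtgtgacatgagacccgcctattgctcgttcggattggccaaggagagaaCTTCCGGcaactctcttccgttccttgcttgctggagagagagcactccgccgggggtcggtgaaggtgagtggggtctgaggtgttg
Cox6a1, chr5:115348909-115349208, minus strand: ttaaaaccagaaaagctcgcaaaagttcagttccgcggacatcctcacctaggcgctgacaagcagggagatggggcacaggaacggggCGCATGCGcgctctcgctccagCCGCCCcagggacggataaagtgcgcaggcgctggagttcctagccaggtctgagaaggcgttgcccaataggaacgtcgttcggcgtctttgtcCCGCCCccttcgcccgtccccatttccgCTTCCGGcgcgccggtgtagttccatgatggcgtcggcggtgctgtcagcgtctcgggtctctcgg
Cox8b, chr7:140900397-140900696, minus strand: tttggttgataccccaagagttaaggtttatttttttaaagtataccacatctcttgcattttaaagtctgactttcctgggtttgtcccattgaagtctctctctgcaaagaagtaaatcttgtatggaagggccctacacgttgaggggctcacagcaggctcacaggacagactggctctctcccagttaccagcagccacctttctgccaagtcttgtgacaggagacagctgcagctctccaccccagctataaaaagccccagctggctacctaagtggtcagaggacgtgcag

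The motifs were NRF1 (CGCATGCG), ETS, the family of the GABP factor (CCGGAAG), ERR (TCAAGGTCA), YY1 (AAGATGGC) and SP1 (GGGCGG), each read on both strands. These are motifs of factors with known roles at respiratory chain genes. The window of Cox6a1 held NRF1, ETS and SP1 matches and that of Sdhd ETS, SP1 and ERR matches. Cox7a2 held an SP1 match and Atp5h an ETS match, and the window of Cox8b held none of the letters. Among windows not shown, that of Ndufc2, which was low on the 2 arrays, held no match either. Those of Cox5a, also low, and of Ndufa6, which was higher on the 2 arrays, held SP1 matches. The NRF1 motif was in 13.6% of the 81 windows against 1.87% of 32851 windows of all genes. For ETS the shares were 25.9% and 8.86%, for YY1 12.3% and 2.75%, for ERR 2.47% and 0.423%, and for SP1 45.7% and 35.7%. Of the genes with a window, 26 were at least 1 unit lower in MPTP mouse 1 than in mouse 2 and 24 were less than 0.5 lower or were higher. The ETS motif was in 10 of the former and 5 of the latter, NRF1 in 4 and 3, and SP1 in 13 and 14. These counts describe letters in a window and not binding.

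The comparison of MPTP with control mice asked what the toxin did to the chain. Over all 8 arrays, 69 of the 92 genes were lower and 23 higher, with a median log2 change of -0.27 against -0.02 over all probe sets. No gene passed an adjusted p of 0.05 by limma (smallest 0.714), where 0% of all tested probe sets did, and 3 genes had an unadjusted p under 0.05, against 5.29% of probe sets. The groups did not overlap in 7 higher genes (7.61%, against 18.2% of probe sets) and 9 lower ones (9.78%, against 20.4%), so both shares lay below the background. Without the 2 arrays the median turned to 0.08, with 71 genes higher and 21 lower, and again none passed, against 0.361% of probe sets. By complex, the medians went from -0.24 to 0.07 for complex I, -0.36 to 0.05 for II, -0.43 to 0.09 for III, -0.27 to 0.08 for IV and -0.29 to 0.11 for V. The direction over 8 arrays thus turned when the 2 arrays were left out, and the change over 6 arrays rests on MPTP mouse 2 alone.

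The genes with an unadjusted p under 0.05 were Cox8b and Cox6a2, which were higher, and Ndufa2, which was lower. Ndufa2, a small complex I subunit, stood at 8.92 and 8.85 in controls, 8.28 and 8.67 in MPTP mice, 8.69 in each acupoint mouse and 8.56 and 8.74 in non-acupoint mice. All injected mice were below both controls. Its log2 change was -0.41 (SE 0.17, adjusted p = 0.714) over 8 arrays and -0.21 (SE 0.087) over 6.

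**Figure D3:**
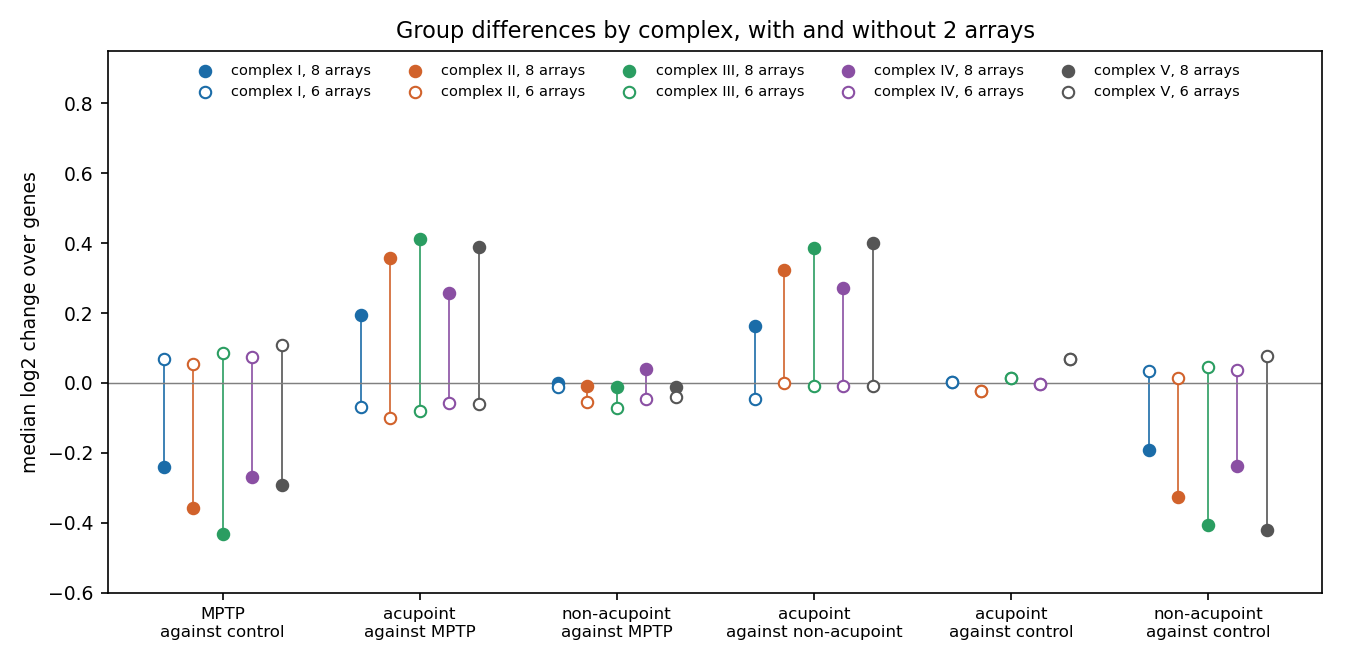
Median log2 change over the genes of each complex (vertical axis) in the 6 comparisons (horizontal axis), with all 8 arrays (filled) and without MPTP mouse 1 and non-acupoint mouse 1 (open). Every median of MPTP or non-acupoint against control lies below 0 with 8 arrays and above 0 with 6.

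The comparison of the acupoint with the MPTP group asked whether needling at GB34 and LR3 altered these levels in mice given the toxin. It shares the MPTP arrays with the comparison above. Over 8 arrays 76 genes were higher and 16 lower in acupoint mice, with a median of 0.29 against 0.01 over all probe sets. None passed an adjusted p of 0.05 by limma (smallest 0.889, background 0%) and none had an unadjusted p under 0.05 (background 1.37%). Groups did not overlap in 5 higher genes (5.43%, background 14.5%) and 4 lower ones (4.35%, background 12.5%). Over 6 arrays the median was -0.07, with 23 genes higher and 69 lower and none called (background 0.0190%). Complex medians ran from 0.19 to 0.41 over 8 arrays and from -0.06 to -0.10 over 6, so the sign turned here too. Cox7a2 was 1.46 higher over 8 arrays (SE 1.14) and -0.01 over 6 (SE 0.092).

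Acupoint and non-acupoint mice differ in where they were needled. Over 8 arrays 76 genes were higher in acupoint mice, with a median of 0.31 against 0.01 over all probe sets, and without the 2 arrays 32 were, with a median of -0.015. No gene passed by limma over 8 arrays (smallest adjusted p 0.893, background 0%) or over 6 (background 0.133%), and 1 had an unadjusted p under 0.05 (background 1.89%). The groups did not overlap in 14 higher genes (15.2%, background 13.8%), close to the background, and in 7 lower ones (7.61%, background 18.0%). The gene with the unadjusted p was Cox8b, 0.69 higher in acupoint mice over 8 arrays (SE 0.24, adjusted p = 0.893) and 0.64 over 6 (SE 0.19, adjusted p = 0.444).

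The non-acupoint and MPTP groups each included 1 array that stood apart, and the median over the 92 genes was 0.00047 over 8 arrays and -0.04 over 6. No gene passed by limma over 8 arrays (smallest adjusted p 1.00, background 0.0443%) or 6 (background 0.146%), and none had an unadjusted p under 0.05 over 8 (background 1.56%). Non-overlap was seen in 1 higher gene, Ndufb7 (1.09%, background 5.67%), and in 3 lower ones (3.26%, background 6.74%). The lower ones were Cox8b at -0.47 (SE 0.24), Cox6b2 at -0.32 (SE 0.15) and Ndufa1.

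Non-acupoint mice against controls repeated the arrangement of the MPTP group, and these comparisons share the controls. Over 8 arrays 70 genes were lower, with a median of -0.26 against -0.02 over all probe sets, and over 6 arrays 64 were higher, with a median of 0.04 against 0.03. None passed by limma over 8 arrays (smallest adjusted p 0.705, background 0%) or 6 (background 0.329%). Over 8 arrays 1 gene, Cox6a2, had an unadjusted p under 0.05 (background 4.88%). Groups did not overlap in 5 higher genes (5.43%, background 25.5%) and 13 lower genes (14.1%, background 22.3%).

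Acupoint mice against controls is the comparison that neither array enters, except through the spread that the 4 groups share. The 92 genes were centred near 0, with 49 higher, 43 lower and a median of 0.01. The medians of the complexes lay between -0.02 for complex II and 0.07 for complex V. Over 8 arrays none passed by limma (smallest adjusted p 0.480, background 0%) and 2 had an unadjusted p under 0.05 (background 5.62%). Groups did not overlap in 28 higher genes (30.4%, background 30.4%) and 20 lower ones (21.7%, background 29.2%). Over 6 arrays, where the spread is smaller, 2 genes passed, 2.17% of the 92 against 8.64% of all tested probe sets. Both are muscle isoforms of complex IV subunits and both were higher. The count includes Cox8b, which passed the brightness floor only through the mice in which it was higher.

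Cox8b, the isoform of subunit VIII of heart, muscle and brown fat, stood at 5.38 and 5.50 in controls, 5.80 and 6.35 in MPTP mice, 6.05 and 6.54 in acupoint mice and 5.56 and 5.65 in non-acupoint mice. All 6 injected mice were above both controls, and the non-acupoint mice were the lowest of the 6. The change from control to acupoint mice was 0.85 (SE 0.16 over 6 arrays, adjusted p = 0.0311). With 8 arrays the SE was 0.24 and the adjusted p 0.480. Both controls and non-acupoint mouse 1 lay under the floor of 5.63, and Cox8b passed it only through the mice in which it was higher. Its change and p are therefore given as a description.

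Cox6a2, the heart and skeletal muscle isoform of subunit VIa, stood at 7.35 and 7.51 in controls, 7.94 and 7.78 in MPTP mice, 7.93 and 7.84 in acupoint mice and 8.17 and 7.84 in non-acupoint mice. Again all injected mice were above both controls. The change from control to acupoint mice was 0.46 (SE 0.087 over 6 arrays, adjusted p = 0.0334), a 1.37-fold difference, with an SE of 0.16 and an adjusted p of 0.754 over 8 arrays. Mice were left out 1 at a time only from the fit of 8 arrays, in which Cox6a2 had not passed. This therefore could not test the call over 6 arrays.

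Marker genes moved beside these isoforms. The 6 choroid plexus markers (Ttr, Kcnj13, Folr1, Clic6, Aqp1 and Sostdc1) summed to 4750 and 5472 in controls, 11167 and 15474 in MPTP mice, 12114 and 14304 in acupoint mice and 301 and 573 in non-acupoint mice. The medians of the 5 relay neuron markers were 0.69 to 1.10 above the control mean in the injected mice. The 7 striated muscle genes that passed the floor, a list added after the isoforms were seen, summed to 578 and 630 in controls, 468 and 647 in MPTP mice, 541 and 502 in acupoint mice and 515 and 527 in non-acupoint mice. Their sum was above both controls in MPTP mouse 2 and below both in the other 5 injected mice. The part of the choroid plexus, relay neuron and muscle markers in the levels of Cox8b and Cox6a2 was not tested.

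**Figure D4:**
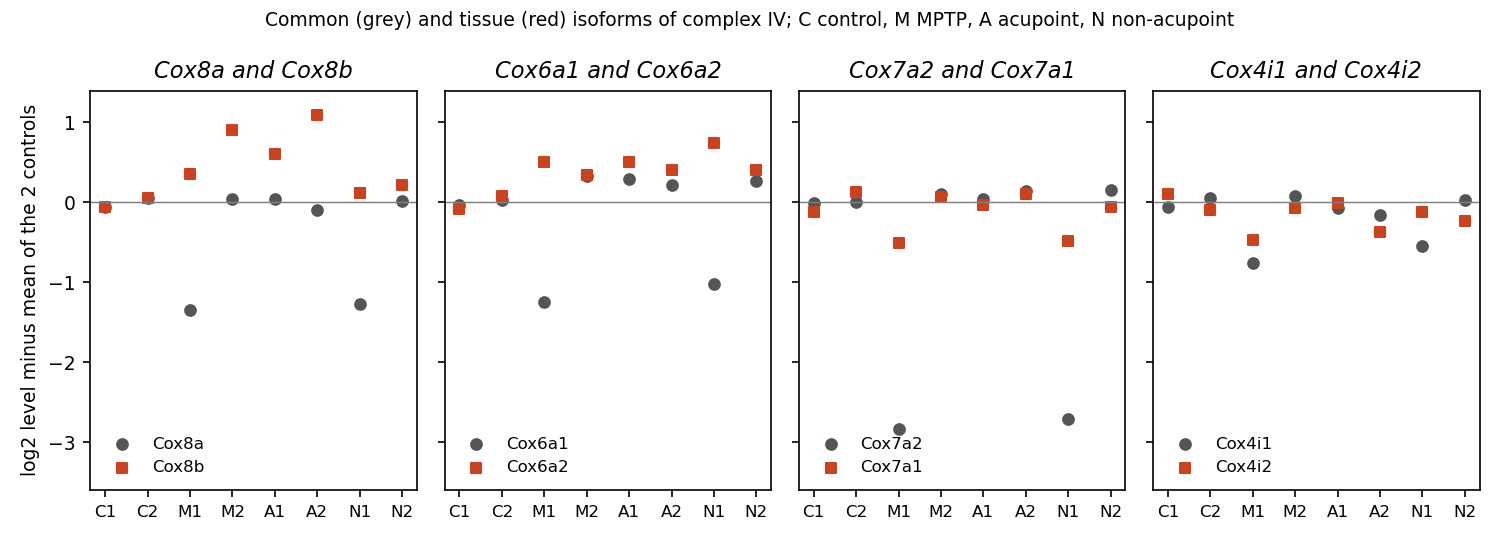
Log2 level minus the mean of the 2 controls (vertical axis) on the 8 arrays (horizontal axis; C control, M MPTP, A acupoint, N non-acupoint, with the mouse number) for 4 pairs of complex IV isoforms. The general isoform (grey circles) is low in M1 and N1 in every pair, down to -2.83 for Cox7a2, while Cox8b and Cox6a2 (red squares) lie above 0 in all 6 injected mice.

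The general partners of these 2 isoforms did not behave alike. Cox8a, the partner of Cox8b, stood at 10.84 and 10.96 in controls and 10.94 and 10.81 in acupoint mice, with overlap. Cox6a1, the partner of Cox6a2, was at 10.09 and 10.16 in controls, 8.88 and 10.46 in MPTP mice, 10.42 and 10.34 in acupoint mice and 9.11 and 10.39 in non-acupoint mice. Outside the 2 arrays it was thus above both controls in all 4 injected mice, by 0.26 in acupoint mice over 6 arrays (SE 0.075, adjusted p = 0.0909), which did not pass. Cox7a1, the muscle partner of Cox7a2, was at 6.47 and 6.51 on the 2 arrays and 6.86 to 7.11 on the others. Cox4i2, the lung isoform, stood at 6.60 and 6.40 in controls, 6.03 and 6.43 in MPTP mice, 6.49 and 6.13 in acupoint mice and 6.39 and 6.27 in non-acupoint mice.

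In all, 4 of the 92 genes were above both controls in all 6 injected mice (Cox6a2, Cox8b, Ndufs1 and Sdhaf1), against 10.3% of tested probe sets. Another 3 were below (Atp5j2, Ndufa2 and Ndufs7), against 9.7%. Both counts were lower than the background share. Sdhaf1 supports the iron-sulfur subunit of complex II, and stood at 8.01 and 8.03 in controls and 8.04 to 8.28 in injected mice.

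On the 6 other arrays the chain was steady. The range over these 6 mice was under 0.5 in 90 of the 92 genes, against 12823 of all 15791 tested probe sets. The exceptions among the 92 were Cox8b and Cox6a2. The median range was 0.194, against 0.313 over all tested probe sets. Median ranges by complex lay between 0.153 for complex III and 0.242 for complex IV.

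Genes that work beside the chain, and a few of its subunits that the symbol rule left out, were read in lists drawn up from their function. In MPTP mouse 1 and non-acupoint mouse 1, 18 electron carriers and partners, such as cytochrome c (Cycs), the ADP/ATP exchangers Slc25a4 and Slc25a5 and the coenzyme Q genes, had medians of -0.65 and -0.70. Cycs stood at 10.60 and 10.67 in controls and 9.46 and 9.73 on the 2 arrays, and Slc25a4 at 12.47 and 12.49 and then at 10.86 and 10.94. The same list held Cyc1, a complex III subunit without the prefixes of the rule. Cyc1 was -0.53 and -0.12 from the control mean on the 2 arrays. The 16 enzymes of the tricarboxylic acid cycle, which feeds the chain, had medians of -0.58 and -0.52. No gene of these lists passed by limma in any of the 6 comparisons, with 8 arrays or 6. The 2 probe sets annotated to subunits of the mitochondrial genome, COX2 and ND3, had medians of -0.34 and -0.44.

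The low levels were shared by large sets of genes outside mitochondrial respiration. The medians were -0.62 on each of the 2 arrays for 37 proteasome subunits, -0.58 and -0.44 for 56 cytosolic ribosomal proteins and -0.32 and -0.30 for 77 mitochondrial ribosomal proteins. The proteasome degrades proteins and the ribosome makes them. The 33 further assembly factors of the chain were near the median of all probe sets, at -0.12 and -0.07. Of these Atpaf1, which assembles the head of complex V, and Ttc19, of complex III, passed in acupoint against control mice over 6 arrays, with log2 changes of 0.53 (SE 0.095, adjusted p = 0.0283) and 0.40 (SE 0.082, adjusted p = 0.0389). These 2 of 33 stand beside 8.64% of all tested probe sets, and none passed over 8 arrays.

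**Figure D5:**
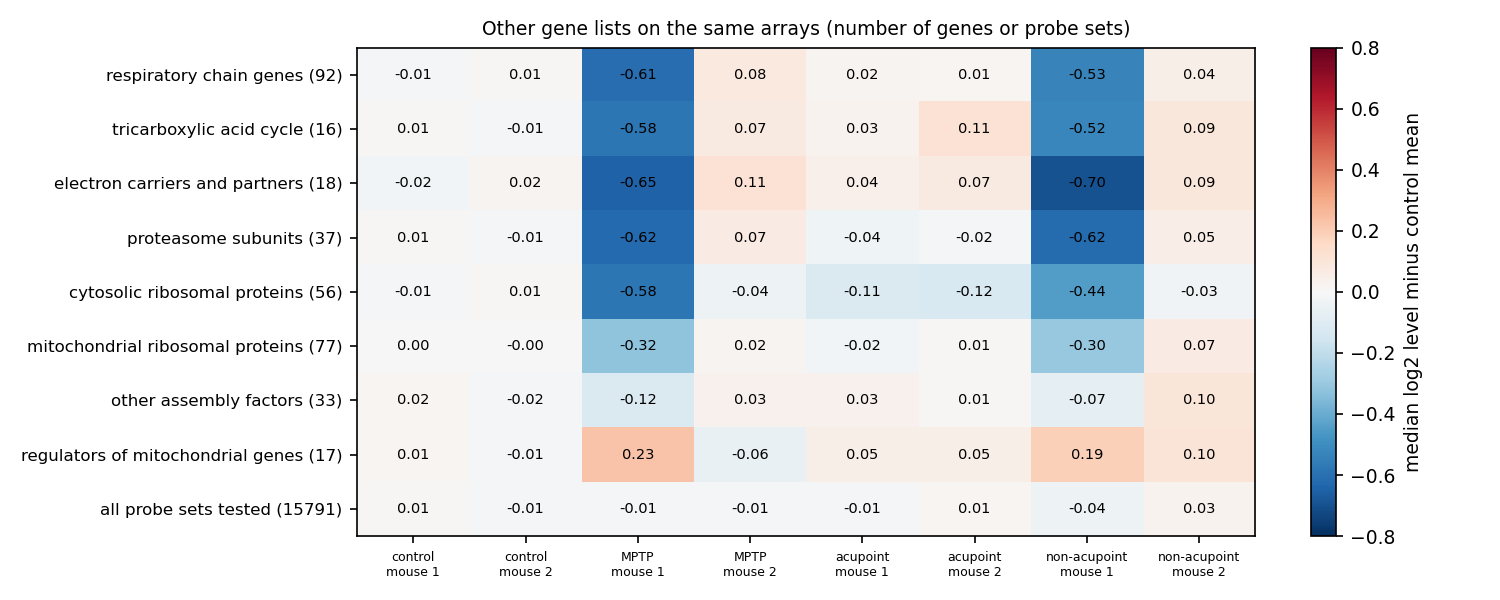
Median log2 level minus the control mean (colour and printed value) for the respiratory chain genes, 7 other gene lists and all tested probe sets (rows, with the number of genes or probe sets) on the 8 arrays (columns). The columns of MPTP mouse 1 and non-acupoint mouse 1 hold values down to -0.70, while the regulators of mitochondrial genes are at 0.23 and 0.19 there.

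The 17 regulators of mitochondrial genes had medians of the opposite sign, 0.23 and 0.19. Ppargc1a, the coactivator that drives mitochondrial biogenesis, stood at 8.17 and 8.14 in controls, 9.64 and 8.53 in MPTP mice, 8.42 and 8.48 in acupoint mice and 9.53 and 8.49 in non-acupoint mice. It was above both controls in all injected mice and highest on the 2 arrays where most respiratory chain genes were low. Tfam, which maintains mitochondrial DNA, was instead at 7.18 and 6.91 on these arrays and 7.82 to 8.00 on the others, and Esrra at 6.77 and 7.20 against 7.82 to 8.06. Tfb2m, a mitochondrial transcription factor, was the only regulator of the 17 that passed in a comparison, where 8.64% of all tested probe sets did, higher in acupoint than in control mice over 6 arrays by 0.36 (SE 0.071, adjusted p = 0.0350).

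Some lists of cell type markers differed on the 2 arrays as well. The 6 neuronal markers had medians of -0.35 and -0.28 and summed to 13519 and 13073, against 15697 to 16975 on the other 6 arrays. The 4 oligodendrocyte markers summed to 7414 and 7779 against 9171 to 11568, and the 5 astrocyte markers to 4685 and 4868 against 5724 to 6506. The 4 endothelial markers had medians of 0.61 and 0.54 and summed to 916 and 925 against 702 to 908. The 4 striatal neuron markers were high in MPTP mouse 1 alone. They summed to 3590 there and to 1251 in non-acupoint mouse 1, against 707 to 1505 on the other 6 arrays. The 5 microglial markers did not set the 2 arrays apart, with sums of 1403 and 1284 against 1247 to 1439. Within a list the genes differed, since Nefl was at 9.19 and 8.96 against 11.12 to 11.30 while Rbfox3, another neuronal marker, was at 9.45 and 9.22 against 8.90 to 9.04. The endothelial marker Cldn5 went against the rest of its list, at 6.89 and 7.21 against 7.96 to 8.29. Of the astrocyte markers, Slc1a2, Gfap and Aqp4 lay below the control mean on both arrays, and Slc1a3 and Aldh1l1 above it. The part of these markers in the low levels of the respiratory chain genes was not tested.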

How the data were processed

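RNA from thalamic tissue of 8 mice, 300 ng per array, was labelled for Affymetrix arrays of the whole-transcript type, as the labels' protocols state. The authors deposited log2 values, made with Affymetrix Expression Console and RMA per the submitters' processing notes, which correct background, normalize between arrays and summarize probes. No source used here gives versions or filters. Such values hide changes in total RNA and compress differences of dim probe sets, and the number of arrays limits precision.

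Genes were named from the platform annotation. Of 35557 probe sets, 21789 had 1 symbol, and those with a mean under 5.63 (the dimmest 40%) or no name were left out, which left 15791. Group means were fitted over the 8 arrays in limma 3.58.1 (R 4.3.3) with eBayes. This left 4 residual and 2.53 prior degrees of freedom and a median residual SD of 0.207. Without the 2 arrays that stood apart these were 2, 4.01 and 0.076. P-values were two-sided and adjusted by Benjamini-Hochberg over all 15791 probe sets, with a threshold of 0.05. With 2 mice against 2, exact permutation gives no p below 0.333, so it was not used. The procedure was tested on simulated data. The genes named take the strongest non-overlapping members of each comparison, fixed catalytic subunits and isoforms, and the widest and narrowest ranges in each complex, and others were chosen after their values were seen. The deviations of same-numbered mice correlated at 0.82 between the MPTP and non-acupoint groups, 0.19 and 0.08 between controls and these groups, and -0.16, -0.28 and -0.02 between the acupoint group and control, MPTP and non-acupoint mice, so not every pair of groups was above 0.1 and the numbers were not taken to pair the mice. The genes and lists were chosen with earlier results of these data known. Alternatives covered normalization, filters, eBayes options, array weights, groups in the fit, a term for the 2 arrays, the replicate block and each mouse left out.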

Additional observations from a re-analysis of the deposited data

How the results depend on the processing

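No respiratory chain gene passed the threshold over all 8 arrays, and this held for all 6 comparisons under the other settings except in acupoint against control mice. There 2 genes, Cox6a2 and Cox8b, passed with 6 arrays, with array weights, with only the 2 groups compared, and with a crossed replicate block that was added after seeing the data (2 in each). Under these settings 1365, 1738, 1365 and 1996 of all 15791 probe sets passed, a larger share than the 2 of 92 each time. Cox8b passed the brightness floor only through the mice in which it was higher, so its part in these counts is a description. In this comparison the setting with 6 arrays and that with only the 2 groups compared are the same fit. The MPTP and non-acupoint arrays kept among the 6 add nothing to the spread. The shared result of these 2 settings is therefore not independent agreement. With a term for the 2 arrays 0 passed, and the smallest adjusted p was 0.0553.

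The member medians depended on the 2 arrays that stood apart. With 6 arrays they were 0.0807 for MPTP against control, -0.0707 for acupoint against MPTP and -0.0149 for acupoint against non-acupoint, and with a term for the 2 arrays 0.0556, -0.0417 and -0.0503, with 0.0602 for non-acupoint against control. With 1 mouse left out at a time they ranged from -0.608 to 0.0807 for MPTP against control, -0.0707 to 0.651 for acupoint against MPTP, -0.348 to 0.382 for non-acupoint against MPTP, -0.0149 to 0.598 for acupoint against non-acupoint and -0.533 to 0.0448 for non-acupoint against control. Each end of these ranges came from leaving out a mouse of the MPTP or non-acupoint group. Over subunits alone the complex IV median was -1.14 in MPTP mouse 1 and -1.04 in non-acupoint mouse 1.

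With the mouse number as a replicate block, 0 genes passed in any comparison, and the numbers do not pair the mice. Cyclic loess turned the sign of 22 of 378 named changes that had not passed, and the 6 arrays that of 168. With 2 mice a group, the spread between mice (pooled SD 0.318 over the 92 genes) hides smaller differences, and an array on which many genes are low counts as spread in all 4 groups.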
